A study of Mus musculus with 12 samples.

Results

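The ubiquitin-specific protease genes were taken as the protein-coding mouse genes whose symbol is Usp followed by a digit. There were 56 of them among 21900 protein-coding genes. Each was read for peaks of H3K79me2, a histone H3 dimethylation for which DOT1L is the methyltransferase. The data were chromatin immunoprecipitation and sequencing (ChIP-seq) of CD8 T cells from male mice of the strain labelled CreERT2;DOT1L-flox;OT-I, with genotype wt;wt;het. The cells were thus wild type for the Cre and the floxed Dot1l allele and heterozygous for OT-I, a transgenic T cell receptor against an ovalbumin peptide. All groups shared this genotype. The age of the mice is not given in the sources used here. After stimulation through CD3 and CD28 the cells were expanded for 8 days in 0.1% DMSO, the vehicle, or in EPZ-5676 or SGC-0946. EPZ-5676 and SGC-0946 are DOT1L inhibitors that occupy the site of the methyl donor S-adenosylmethionine. The labels give 10 mM for each, where micromolar doses would be usual in culture, so the unit is doubtful. Each of the 3 treatments had 2 immunoprecipitated and 2 input libraries. The comparison asks what DOT1L inhibition does to the mark, and here it is described at the Usp genes.

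Ubiquitin-specific proteases form the largest family of deubiquitinases. They are cysteine proteases that cut ubiquitin from proteins and thereby change the stability, location or partners of their substrates. In T cells members of the family act on receptor signalling, on NF-kappaB and TGF-beta pathways, on DNA repair and on histones. The family also has a link to the mark itself. Ubiquitin on histone H2B, placed by Rnf20 and Rnf40, stimulates DOT1L, and several members, Usp22 among them, remove it. H3K79me2 is known to lie over the first part of transcribed genes, downstream of the start site.

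For each treatment 1 list of broad peaks was deposited, and the DMSO, EPZ and SGC lists hold 12578, 4443 and 55 peaks. No spread between replicates can be measured from them and no test could be made. Read depth cannot be told from the lists. A gene without a peak is a gene where none was called. A gene was counted as marked when its interval on mm10 (GRCm38) shared 1 base or more with a peak. Fold enrichment is the authors' ratio over background, averaged over a peak, and each gene is given by its highest peak within a list. Fold enrichment does not compare between lists. The labelled cell type was checked against markers. All 5 markers taken for CD8 T cells had a DMSO peak, namely Cd8a, Cd8b1 and the general T cell genes Cd3d, Cd3e and Cd3g. Cd3d and Cd3g carried the same value, 10.7, so they are not separate evidence. None was called in 3 CD4 T cell, 2 NK cell and 5 myeloid markers, Cd4, Ncr1 and Lyz2 included. Of 5 B cell markers Cd79a alone had one, through 0.254 kb.

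In vehicle-treated cells a DMSO peak was called in 31 of the 56 Usp genes (55.4%). Over all protein-coding genes the share was 34.5%. With EPZ-5676 a peak was called in 17 of the 56 (30.4%), beside 15.9% of all genes, and all 17 were among the 31. With SGC-0946 a peak was called in 0 of the 56, beside 0.142% of all genes. Of the 31 genes marked in DMSO 54.8% had an EPZ peak, beside 46.1% of all genes marked in DMSO. The last 2 shares are close to each other. With peaks of −log10 q of at least 5 alone, a DMSO peak was called in 17 of the 56 (30.4%), beside 17.3% of all genes, and an EPZ peak in 7 of the 56 (12.5%), beside 7.68%.

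The strongest DMSO values were at Usp1, which acts on the Fanconi anaemia protein FANCD2 and on PCNA, and at Usp7, which acts on MDM2 and p53. Usp1 (chr4:98923810-98935543) had a DMSO fold enrichment of 9.43 and an EPZ value of 10.8 within the EPZ list. Usp7 (chr16:8688722-8757067) had 9.30 in DMSO and 4.66 in the EPZ list. Among the 7563 genes marked in DMSO these DMSO values stood at percentiles 95.6 and 95.3. The lowest were Usp49 at 2.93 and Usp5 at 2.90. The median of the 31 marked members was 4.78, and that of all marked genes 4.47.

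**Figure D1:**
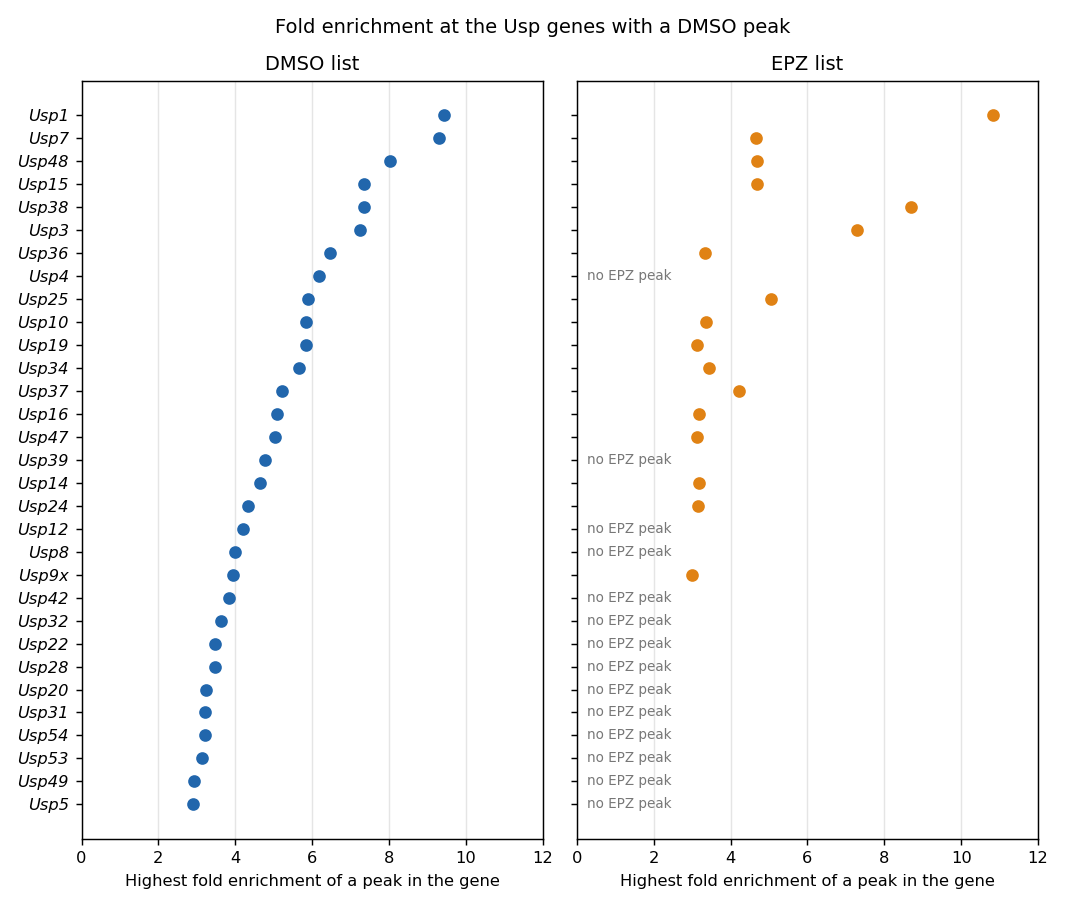
Highest fold enrichment of a peak in each of the 31 Usp genes with a DMSO peak, in the DMSO list (left, blue points) and in the EPZ list (right, orange points), with genes ordered by the DMSO value. Each point is the authors' value from 1 pooled list, so there are no error bars, and the panels are separate because values do not compare between lists. The 14 genes without an EPZ peak lie at DMSO values from 2.90 to 6.18.

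Over all protein-coding genes 34.5% were marked in DMSO, and 46.1% of these had an EPZ peak. The counts by group that follow stand beside those shares and were not tested. DNA damage and cell cycle members were marked in 8 of 11 cases, and 6 of these 8 had an EPZ peak. Besides Usp1 and Usp7 they were Usp36, Usp10, Usp37, Usp47, Usp42 and Usp28. Usp36, a nucleolar deubiquitinase that also acts on MYC, had 4 DMSO peaks over 11.2 kb, the highest at 6.46, and 1 EPZ peak of 1.96 kb. Usp10, which acts on p53 outside the nucleus, had 6 DMSO peaks over 26.6 kb at up to 5.85. Its 1 EPZ peak covered 6.04 kb. Usp47, a deubiquitinase of DNA polymerase beta, had 21.0 kb under DMSO peaks, at up to 5.03, and 0.568 kb under an EPZ peak. Usp42, which acts on p53, and Usp28, which acts on MYC, had DMSO values of 3.83 and 3.47 and no EPZ peak. No peak was called in Usp2, Usp11 and Usp45.

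The DMSO peak of Usp37, a deubiquitinase of cyclin A, also covered its neighbour Cnot9, a subunit of the deadenylase complex. That peak was 15.8 kb wide at a value of 5.21, and 10.4 kb of it lay in Cnot9, which lies beside the Usp37 start and inside the annotated Usp37 interval. Only 5.15 kb lay past the Usp37 start site. The stronger of its 2 EPZ peaks, 4.81 kb at 4.23, lay across both starts, with 1.82 kb in Cnot9, and the weaker one, of 0.670 kb, lay wholly in Cnot9. The mark can therefore not be given to Usp37 alone.

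Immune receptor and cytokine signalling members were marked in 7 of 8 cases, and 5 of the 7 had an EPZ peak. Usp15, which acts on TGF-beta receptors and SMADs, had a DMSO value of 7.36 and 16.8 kb, and an EPZ peak of 9.19 kb at 4.69. Usp38 had 7.35 in DMSO over 10.1 kb, with an EPZ value of 8.70 over 5.71 kb. Usp25, which acts on TRAF proteins in cytokine signalling, had 5.89 in DMSO over 19.9 kb and 5.04 in the EPZ list over 7.92 kb. Usp34, which acts on axin in Wnt signalling, had 5.67 in DMSO and 2 EPZ peaks over 5.87 kb. At the X-linked Usp9x, known in T cells for its part in receptor signalling, 14.3 kb lay under DMSO peaks of at most 3.93, and 0.534 kb lay under its EPZ peak. Usp4 and Usp12 were marked in DMSO with no EPZ peak. Usp18, which removes the ubiquitin-like modifier ISG15 rather than ubiquitin and is known as an interferon-induced gene, had no peak.

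Histone deubiquitinases were marked in 4 of 8 cases, and 2 of the 4 had an EPZ peak. Usp3, which acts on histone H2A, held the most DMSO peak bases of the family, 37.8 kb in 3 peaks at up to 7.24, and 2 EPZ peaks covered 19.6 kb at up to 7.30. Usp16, also an H2A deubiquitinase, had 5.09 in DMSO over 4.70 kb and 3.19 in the EPZ list over 1.71 kb. Usp22, the H2B deubiquitinase of the SAGA coactivator complex, had 2 DMSO peaks at 3.48 and 3.44, over 4.62 kb, and no EPZ peak. Usp49 counted as marked through 31 bases. Its peak, 1.61 kb at 2.93, lay almost wholly before its start, within the overlapping gene Gm20517. Usp21, Usp27x, Usp44 and Usp51 had no peak.

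Members tied to the proteasome and free ubiquitin were marked in 2 of 3 cases and those of membrane traffic and organelles in 4 of 7, with 1 EPZ peak in each group. All but Usp19 had DMSO values of 4.65 or less. Usp19, which has a form anchored in the endoplasmic reticulum, had 5.85 over 3.495 kb in DMSO and 3.14 over 1.56 kb in the EPZ list. Usp14, a deubiquitinase of the proteasome, had 4.65 over 5.86 kb in DMSO and 3.18 over 0.999 kb in the EPZ list. Usp8, which acts at endosomes, Usp32, which acts on RAB7, and Usp20 had 4.00, 3.63 and 3.24 in DMSO and no EPZ peak. Usp5, which disassembles free ubiquitin chains, had the lowest DMSO value of the family, 2.90 over 1.08 kb. Stronger DMSO peaks lay just outside Usp5, over its neighbours Cdca3 and Tpi1, and EPZ peaks lay over these neighbours too. No peak was called in Usp13, in the mitochondrial Usp30, in Usp33 or in Usp6nl, which carries the prefix but encodes an activator of Rab GTPases and not a protease.

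Members that are atypical or long regarded as inactive were marked in 3 of 4 cases and none had an EPZ peak. Usp39, a component of the spliceosome, had 4.78 in DMSO over 5.28 kb. Usp54 and Usp53 had 3.20 over 0.812 kb and 3.14 over 1.52 kb, and Usp50 had no peak. Of the 7 members outside these groups 3 were marked. Usp31 had 5 DMSO peaks over 10.5 kb, none above 3.21, and no EPZ peak. Usp48 had 8.04 in DMSO over 18.0 kb and 4.69 in the EPZ list over 8.65 kb, and Usp24 had 4.34 and 3.14, over 24.2 kb and 1.99 kb. Usp35, Usp40, Usp43 and Usp46 had no peak.

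None of the 8 members grouped here as germline had a peak in any list. These are Usp9y on the Y chromosome, Usp26 on the X chromosome, Usp29 and the 5 genes Usp17la to Usp17le. The last 5 are related copies on chromosome 7, whose sequence identity was not computed here. The group was set by symbol, and expression was not measured. Its name is a label only and not a trait shown for Usp29 or the Usp17l genes. How the authors treated reads that match several places is not given in the sources used here, so the copies of Usp17l are uncertain. Of the 5 X-linked members Usp9x alone was marked, beside 19.0% of all X-linked genes. All 8 members shorter than 10 kb were without a peak, namely the 5 Usp17l genes, Usp21, Usp27x and Usp51, and 22.7% of all genes of that length had one. From 10 to below 50 kb 13 of 22 members (59.1%) were marked, beside 42.6% of all genes, and at 50 kb or more 18 of 26 (69.2%), beside 38.9%. The 25 members without a DMSO peak had a median gene length of 25.0 kb, and the 31 with one 56.1 kb.

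The 31 marked members had a median of 7.99 kb under DMSO peaks, and all marked genes had 4.10 kb. The members are also longer genes, with a median length of 56.1 kb beside 23.4 kb for all marked genes, and the part of gene length in this was not tested. The members with most DMSO peak bases were Usp3, Usp7 (29.9 kb), Usp10, Usp24 and Usp12 (22.6 kb). At Usp1 the peaks covered 65.3% of the gene, at Usp10 56.4% and at Usp3 48.2%. The highest peak reached into another protein-coding gene in 2 of the 31 (6.45%), namely Usp37 and Usp49, and over all marked genes this share was 23.0%.

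**Figure D2:**
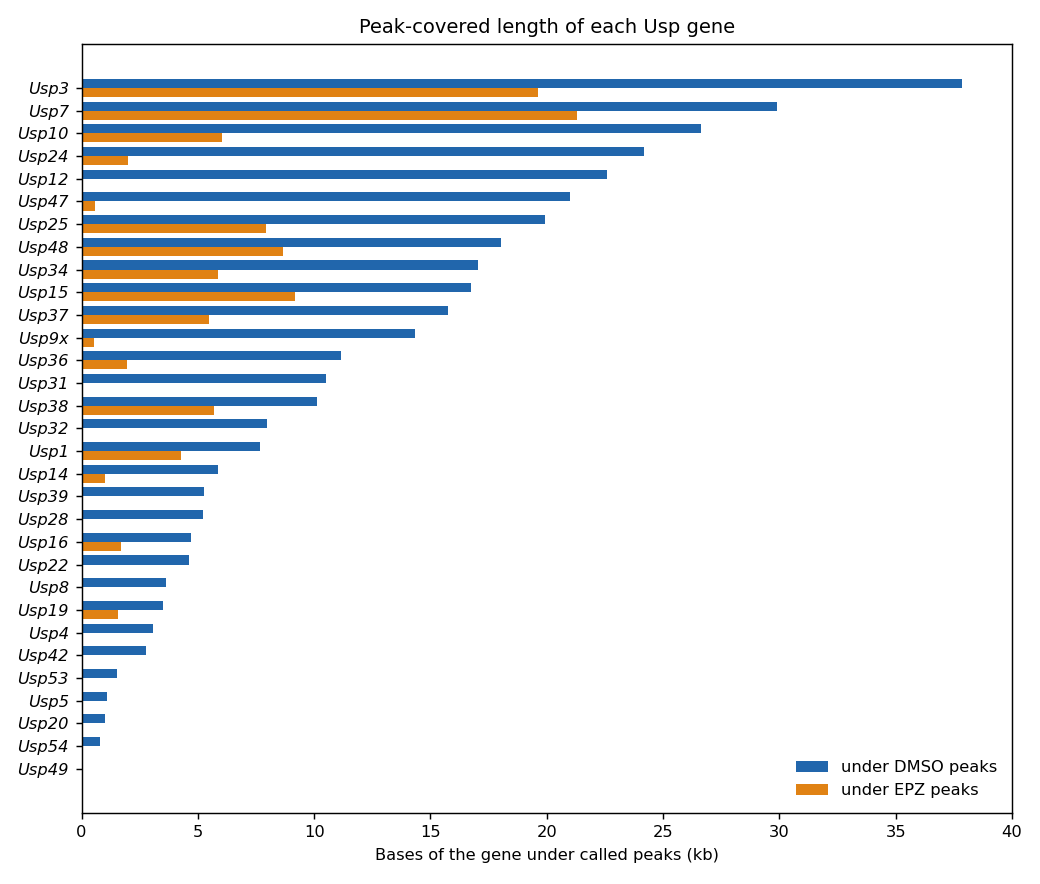
Bases of each marked Usp gene under called peaks, in kb, for the DMSO list (blue bars) and the EPZ list (orange bars), 1 pooled list each and therefore without error bars. Usp3 and Usp7 lead in both lists. At Usp12, with 22.6 kb in DMSO, no EPZ peak was called, and the bar of Usp49 (31 bases) is too short to see.

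Under EPZ-5676 the called regions of the family were shorter at every marked member. In all, 354.5 kb of the 56 genes lay under DMSO peaks and 103.3 kb under EPZ peaks. Every base under an EPZ peak in these genes also lay under a DMSO peak, so 29.1% of DMSO bases were under both. The same share over all protein-coding genes was 26.6%. In the 17 members with an EPZ peak the share per gene had a median of 36.4%, from 2.70% at Usp47 to 71.2% at Usp7, and in all genes with both kinds of peak the median was 34.3%. After Usp7 the highest shares were at Usp38 (56.4%), Usp1 (55.6%), Usp15 (54.9%) and Usp3 (51.8%). After Usp47 the lowest were at Usp9x (3.72%), Usp24 (8.25%), Usp14 (17.0%) and Usp36 (17.6%). The order depended on weak peaks. With peaks of −log10 q of at least 5 alone, Usp1 was highest at 78.8%, followed by Usp7 at 71.2% and Usp48 at 59.3%.

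Members with an EPZ peak had higher and wider DMSO peaks than those without. The 17 with one had DMSO values from 3.93 to 9.43 with a median of 5.85, and the 14 without had values from 2.90 to 6.18 with a median of 3.47, so the sets overlap. Their median DMSO lengths were 16.8 kb and 3.35 kb. All 6 members with a DMSO value of 7 or more had an EPZ peak, as did 93.2% of all such genes. From 5 to below 7 it was 8 of 9, beside 85.2%, and from 3.5 to below 5 it was 3 of 8, beside 30.4%. Below 3.5 it was 0 of 8, beside 0.659%. The family was not tested against other genes.

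Usp4 and Usp12 stand apart among the members without an EPZ peak, Usp4 by strength and Usp12 by width. Usp4, a deubiquitinase of TGF-beta and NF-kappaB signalling (chr9:108346564-108392545), had a DMSO value of 6.18, and 704 of the 792 marked genes within 0.5 of that value (88.9%) had an EPZ peak. Its single DMSO peak was 3.08 kb wide, and among genes within the same range and below 5 kb the share was 73.4%. Usp12, which acts in T cell receptor signalling (chr5:146734809-146794956), had 22.6 kb of DMSO peaks at up to 4.19. Among marked genes with 20 kb or more and a value within 0.5 of it, 101 of 164 (61.6%) had an EPZ peak. Just below Usp4, Usp25 at 5.89 had an EPZ peak of 7.92 kb.

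**Figure D3:**
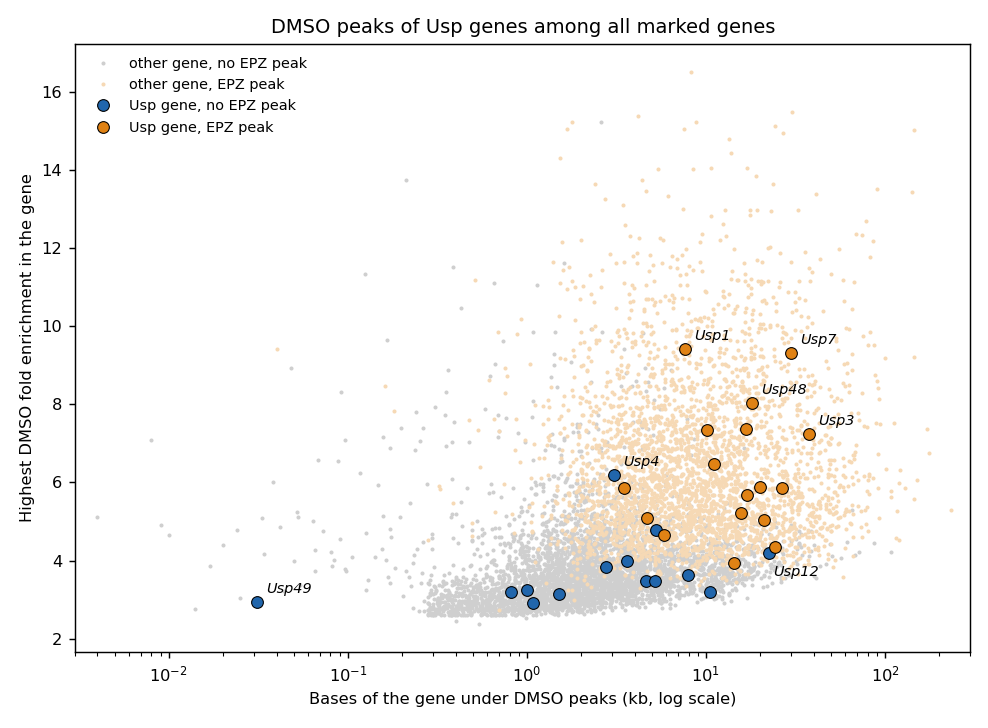
Highest DMSO fold enrichment against the bases of the gene under DMSO peaks (kb, log scale) for all 7563 protein-coding genes with a DMSO peak. Large points are the 31 Usp genes, orange with an EPZ peak (17) and blue without (14), and small points are all other marked genes in paler tones of the same meaning. Usp4 at 6.18 is the highest blue point, and Usp12 is the widest, at 22.6 kb.

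The peaks lay over the first part of the genes, and the EPZ peaks were shorter mainly at the far edge. RefSeq start windows, which run from 250 bases before to 50 bases after a start, gave 1 start site and strand for 23 of the 31 marked members. In 18 of the 23 (78.3%) the near edge of the highest DMSO peak lay within 1 kb of the start site, and in all marked genes with 1 start this share was 70.4%. The median near edge was 0.054 kb past the start and the median far edge 7.04 kb past it. In 14 of the 23 members an EPZ peak was called. The near edge of the highest EPZ peak lay a median of 0.667 kb inside that of the highest DMSO peak. Its far edge lay a median of 5.72 kb inside the far edge. The far edge lay further inside than the near edge in 13 of 14 members, with Usp37 the exception, and in 85.3% of all 2206 genes so placed. At Usp24 the far edge of the highest EPZ peak was 22.3 kb inside that of the DMSO peak, at Usp3 17.8 kb, and at Usp10 16.9 kb.

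Usp20 and Usp54 had DMSO peaks away from the listed start. The Usp20 peak began 13.8 kb past the start. The nearer edge of the Usp54 peak was at −23.1 kb from the listed start, upstream of it and inside the annotated gene, whose interval runs further upstream. The later DMSO peaks of Usp36, between 21.1 kb and 30.8 kb past the start, and of Usp48, from 49.2 kb to 52.7 kb past it, had no EPZ peak on them.

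**Figure D4:**
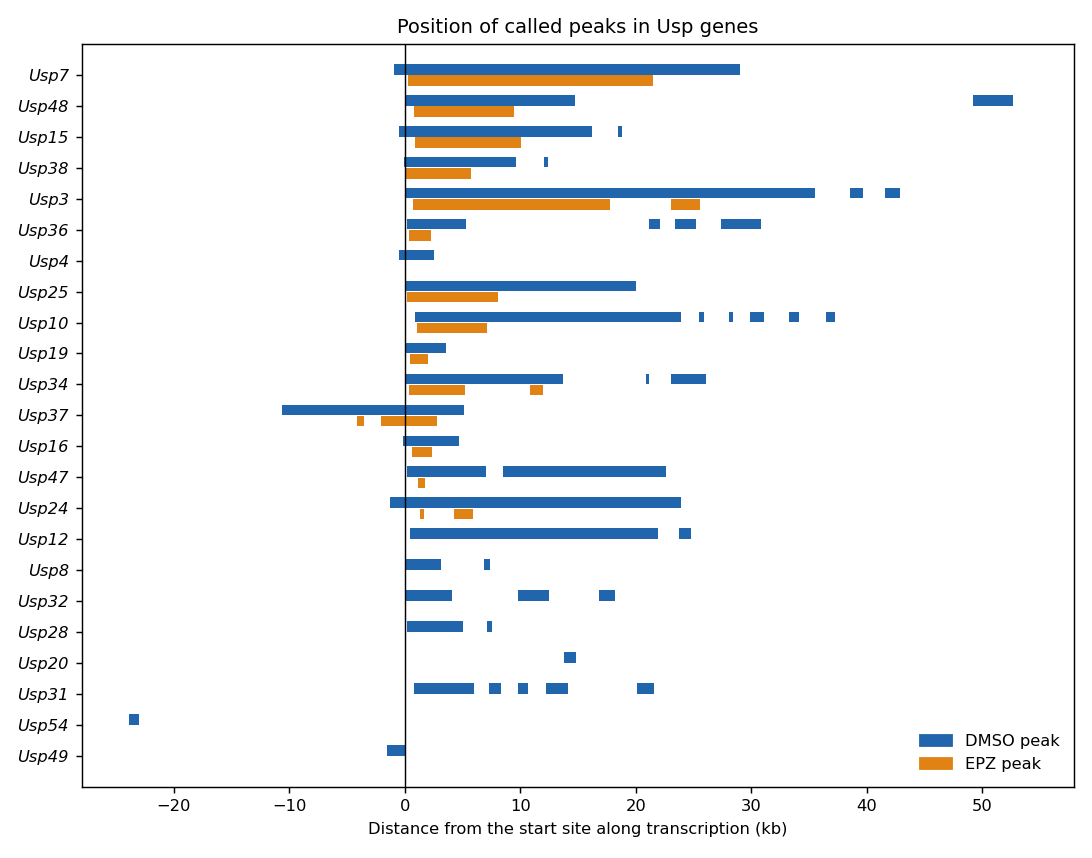
Called peaks of the 23 marked Usp genes with a single RefSeq start, drawn by distance from the start site along transcription (kb). Blue bars are DMSO peaks and orange bars EPZ peaks, with genes ordered by DMSO fold enrichment. At Usp7 and Usp3 EPZ bars run to 21.5 kb and 25.6 kb past the start, and at Usp4, Usp12 and the genes below it there is none.

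The 250 bases before the start are shown for 6 members because their genes cover the range of outcomes. Usp7 and Usp38 had peaks in both lists, Usp4 and Usp12 in DMSO only, Usp46, the close paralogue of Usp12, in none, and Usp26 is a germline member. The sequences are from RefSeq on GRCm38.p6, written 5′ to 3′ on the strand of the gene. They span chr16:8738343-8738592, chr8:81014907-81015156, chr5:146794957-146795206, chr5:74068412-74068661 and chrX:51801234-51801483 on the minus strand and chr9:108347581-108347830 on the plus strand. Capitals mark matches on either strand to the SP/KLF box GGGCGG, the ETS core CCGGAAG, the NFY box CCAAT or the TATA box TATAAA, and adjoining capitals can be overlapping matches.
Usp7: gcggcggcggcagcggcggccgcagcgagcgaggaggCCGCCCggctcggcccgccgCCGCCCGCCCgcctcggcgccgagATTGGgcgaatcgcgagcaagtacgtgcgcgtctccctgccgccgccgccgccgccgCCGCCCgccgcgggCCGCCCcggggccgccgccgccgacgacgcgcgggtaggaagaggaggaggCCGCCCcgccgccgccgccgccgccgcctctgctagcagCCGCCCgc
Usp38: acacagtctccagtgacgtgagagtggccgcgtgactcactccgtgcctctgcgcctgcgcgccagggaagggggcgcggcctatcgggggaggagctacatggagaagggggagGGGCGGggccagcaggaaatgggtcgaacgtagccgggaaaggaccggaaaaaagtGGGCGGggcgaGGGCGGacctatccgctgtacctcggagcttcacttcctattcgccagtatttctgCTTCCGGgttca
Usp4: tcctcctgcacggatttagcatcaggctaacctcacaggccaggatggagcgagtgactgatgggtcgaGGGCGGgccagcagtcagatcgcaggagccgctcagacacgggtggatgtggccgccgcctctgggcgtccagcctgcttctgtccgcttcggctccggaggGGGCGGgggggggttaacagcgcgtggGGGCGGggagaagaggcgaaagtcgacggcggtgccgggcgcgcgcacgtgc
Usp12: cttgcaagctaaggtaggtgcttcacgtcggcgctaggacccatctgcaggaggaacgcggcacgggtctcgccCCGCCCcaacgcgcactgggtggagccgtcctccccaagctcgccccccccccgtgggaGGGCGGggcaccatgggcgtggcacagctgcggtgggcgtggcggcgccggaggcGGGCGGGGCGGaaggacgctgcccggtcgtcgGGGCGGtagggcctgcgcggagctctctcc
Usp46: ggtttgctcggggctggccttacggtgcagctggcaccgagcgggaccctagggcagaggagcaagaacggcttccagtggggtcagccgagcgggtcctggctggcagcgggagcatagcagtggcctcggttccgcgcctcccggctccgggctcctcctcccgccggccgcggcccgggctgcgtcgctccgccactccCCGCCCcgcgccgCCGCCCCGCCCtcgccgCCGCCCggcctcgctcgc
Usp26: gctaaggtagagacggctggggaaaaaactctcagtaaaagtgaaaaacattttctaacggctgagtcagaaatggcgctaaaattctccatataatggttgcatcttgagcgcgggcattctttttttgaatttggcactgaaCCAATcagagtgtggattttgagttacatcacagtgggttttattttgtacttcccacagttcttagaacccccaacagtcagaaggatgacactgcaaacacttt

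By median, start regions of marked members held more CpG dinucleotides than those of the germline group, but the ranges overlapped. Usp7 had 55 CpG dinucleotides in the 250 bases, Usp12 30, Usp4 26, Usp38 22 and Usp26 5. Usp46, which had no peak, had 33, more than Usp12. The 23 marked members had a median of 26, beside 17 over the start regions of all marked genes and 5 over those of all unmarked genes. They ranged from 4 at Usp54 to 55 at Usp7, with 6 at Usp10 and 9 at Usp19. Unmarked members outside the germline group had a median of 17 over 14 start regions. Germline members had a median of 1 over 7, from 0 to 14. The SP/KLF box was in 73.9% of the 23, beside 58.8% of the start regions of all marked genes and 42.6% of all start regions. Unmarked members outside the germline group had it in 71.4%, close to the marked ones. The ETS core was in 21.7% of the 23, beside 17.0% in all marked genes and 8.99% of all, and the TATA box in 4.35%, beside 5.96% and 11.6%. For the ETS core and the TATA box the marked members were thus close to other marked genes. The NFY box was in all 7 germline start regions, 4 of them of the related Usp17l genes. It was in 17.4% of the 23, beside 35.3% in all marked genes and 35.4% of all. A match is a description of the letters, not a bound site.

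Some close paralogues differed in whether a peak was called and others did not. This was not tested against the share of 55.4% marked over the family. Usp12 was marked over 22.6 kb, and Usp46, of similar gene length (60.1 kb and 69.7 kb), was not. Of the trio Usp15, Usp4 and Usp11, the first had DMSO and EPZ peaks, the second a DMSO peak and the X-linked Usp11 none. Usp16 was marked in both lists, and Usp45 had no peak. Usp22 was marked in DMSO, and its short X-linked relatives Usp27x and Usp51 were not. Usp9x was marked in both lists, and its Y-linked copy Usp9y was not. Usp20 and Usp5 had weak DMSO peaks, and their relatives Usp33 and Usp13 had none. In other cases paralogues were alike in status. Usp24 and Usp34 both had DMSO and EPZ peaks, and Usp53 and Usp54 both had weak DMSO peaks alone. Usp25 and Usp28 differed, with peaks in both lists at Usp25 and in DMSO alone at Usp28.

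At the Usp genes the inhibitors differed in called peaks. At the same labelled dose and day, 17 of 56 members had an EPZ peak, beside 15.9% of all genes, and 0 had an SGC peak, beside 0.142%. The lists differed likewise over all genes. The SGC list marked 31 protein-coding genes in all. With 1 pooled list per compound the difference could not be tested, and no member's value can be compared between the compounds. Usp1, with the highest EPZ value of the family at 10.8, had no SGC peak.

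Each list of other ubiquitin-system genes had a larger share of marked members than the Usp genes. The list named deubiquitinases of other families had a DMSO peak in 27 of 37 cases (73.0%), from Otud4 at 6.93 to Pan2 at 2.75. Of the 27, 12 (44.4%) had an EPZ peak. Pan2, Uspl1 and Cops5 are on this list although they are not known chiefly as deubiquitinases. Cyld, which removes linear and some lysine-linked chains in NF-kappaB signalling, had 4.67 in DMSO and 3.75 in the EPZ list. Tnfaip3, which encodes A20, had 4.08 in DMSO and no EPZ peak. The Senp proteases of SUMO and NEDD8 had a DMSO peak in 6 of 7 cases, all but Senp8, from Senp1 at 7.21 to Senp2 at 3.4997. An EPZ peak was called in 4. The 56 Usp genes stood at 55.4%, and at 31 of 47 without the germline members and Usp6nl. All protein-coding genes stood at 34.5%, and 46.1% of the marked ones had an EPZ peak. These shares were not tested against each other.

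The enzymes that attach ubiquitin included the strongest values of the system. All 7 ubiquitin and E1 genes were marked, led by the polyubiquitin gene Ubb at 10.2 with 94.0% of its DMSO bases also under EPZ peaks, and the lowest was Uba6 at 3.25. Uba6 and Uba7 had no EPZ peak. E2 conjugating enzymes were marked in 28 of 37 cases, with the lowest value, 2.83, at Ube2e1, and 17 of the 28 had an EPZ peak. E3 ligases studied in T cells were marked in 26 of 28 cases (92.9%), all but Rnf128 and Dtx1, from Peli1 at 11.98 to Vhl at 2.96. Of the 26, 18 (69.2%) had an EPZ peak. Over all genes 34.5% were marked in DMSO, and 46.1% of these had an EPZ peak. This list was chosen as genes studied in T cells, and the part of that choice in its share was not tested. Cblb, which restrains T cell receptor signalling, had 4.93 in DMSO and 4.43 in the EPZ list.

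Partners of Usp proteins were marked in 13 of 14 cases in DMSO (92.9%), beside 34.5% of all genes. Of the 13, 5 (38.5%) had an EPZ peak, beside 46.1% of all marked genes. G3bp1, the partner of Usp10, was highest at 8.99, with 74.2% of its DMSO bases under EPZ peaks, and Stam2, a partner of Usp8, was lowest at 3.31. Of the SAGA deubiquitinase module around Usp22, Atxn7l3 had 5.94 in DMSO with an EPZ peak, Eny2 had 3.40 with none, and Atxn7 had no peak. Wdr48, the activating partner of Usp1, Usp12 and Usp46, had 3.57 and no EPZ peak. Rnf20 and Rnf40, the ligases of histone H2B, had 3.67 and 4.44 in DMSO and no EPZ peak.

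**Figure D5:**
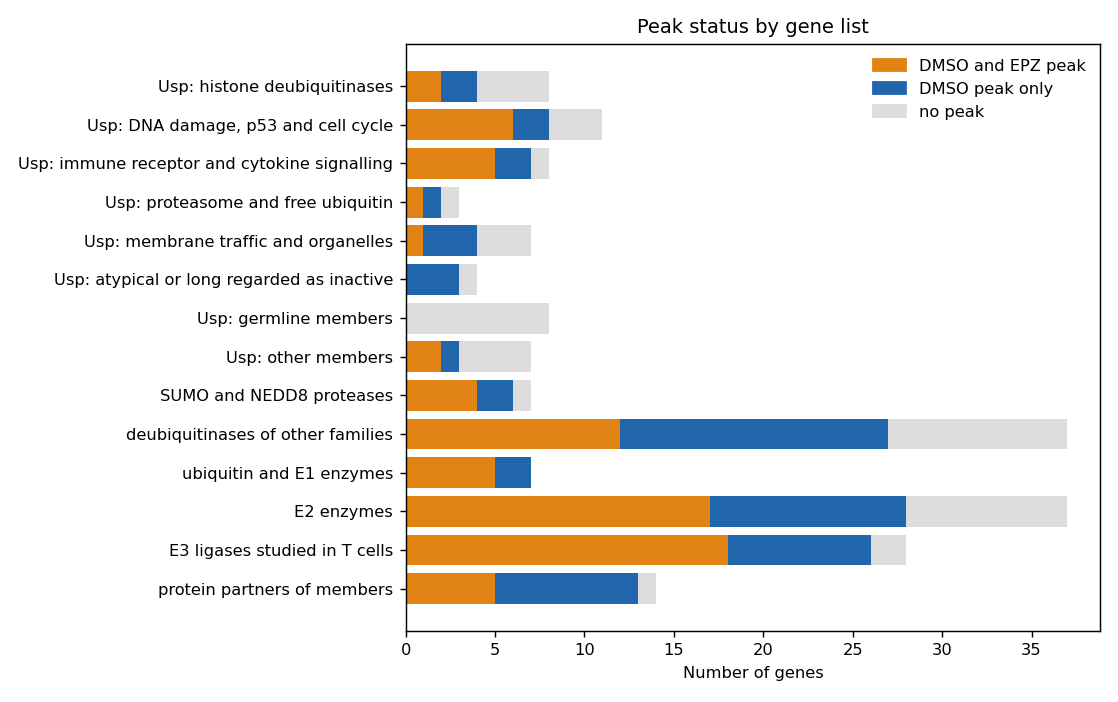
Number of genes by peak status in the 8 groups of Usp genes (upper rows) and in 6 lists of other ubiquitin-system genes (lower rows). Orange is a DMSO and an EPZ peak, blue a DMSO peak alone and grey no peak. The 8 germline members are wholly grey, and the 7 ubiquitin and E1 genes hold no grey.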

How the data were processed

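The series holds 12 libraries, 6 immunoprecipitated and 6 input, and 3 deposited peak lists, 1 per treatment. A list was treated as the pool of 2 replicates. MACS2 2.2.7.1, BWA 0.7.17-r1188 and Picard were used with mm10 (GRCm38) and sacCer3, per the submitters' processing notes. Not given in the sources used here are how replicates were combined, whether inputs and the yeast spike-in were used, and the thresholds. Columns were read by the broadPeak layout. The deposited fold enrichment is the authors' ratio over background, averaged over a peak. The −log10 q that the authors deposited is likewise an average over a peak, and their −log10 p was not used. The deposited score was not used. Fold enrichment was compared only within a list.

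Gene intervals, start windows and sequences came from RefSeq tables on GRCm38.p6. All 56 members were found by symbol, and 43 had a start window. Overlaps were computed with Python 3.11.15 and numpy 2.4.6, with a minimum of 1 base, and were checked base by base on simulated data. Exons and introns were not analysed here. The members, groups, gene lists and the rule for naming genes (strongest, widest and weakest members, the ends of the share under EPZ peaks, paralogues and the ends of each list) were chosen with earlier results of these data known. The start regions shown, the motifs searched and the strata of fold and width were chosen after values were seen. Neither intervals nor p-values are given, since no list has replicates and depth is unknown. Alternatives were a −log10 q of at least 5, at least 500 peak bases in a gene, 1 gene per peak, genes widened by 2000 bases on each side, and the family without Usp6nl and the germline members. The highest value of the E2 list is not reported here.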

Additional observations from a re-analysis of the deposited data

How the results depend on the processing

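Requiring a −log10 q of at least 5 lowered the members with a DMSO peak from 31 to 17, those with an EPZ peak from 17 to 7, and the median share of DMSO bases also under EPZ peaks from 3.72% to 0%. Members that then had no EPZ peak included Usp10, Usp34 and Usp16, and those with no DMSO peak included Usp12, Usp22 and Usp24. The counts can only fall under that setting, since weak peaks are left out, whereas the share per gene can move either way. It rose at Usp1 (from 55.6% to 78.8%), Usp48, Usp38 and Usp15. It fell at Usp3 (from 51.8% to 48.0%), and to 0% at Usp36, Usp10, Usp19, Usp34, Usp37, Usp16, Usp47 and Usp14. The median share was 5.99% with at least 500 peak bases, 5.99% with 1 gene per peak and 7.91% with genes widened by 2000 bases. Over all genes marked in DMSO the median share was 0% in the main reading and under each alternative. With at least 500 peak bases, and with 1 gene per peak, Usp49 alone left the DMSO count. That gave 30 of 56 in each case, beside 32.9% and 31.1% of all genes. Widening gave Usp5 the EPZ peaks of its neighbours Cdca3 and Tpi1, for a count of 18 of 56, beside 18.1% of all genes. No other member changed status under these settings or without Usp6nl and the germline members, and the SGC count was 0 under all 5. No paired analysis was possible because the files hold 1 list per treatment. For the same reason no replicate could be left out. Unknown depth limits every absence of a peak.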
